A study of Homo sapiens with 8 samples.

Results

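Reads called labelled with 4-thiouridine (4sU) at the end of a 12 h labelling pulse were measured for each gene in THP-1 cells. Unlabelled cells served as background. A gene's labelled share is its count of reads with T-to-C conversions divided by its count of all reads. Each gene was represented by the 3′ UTR segment with the most reads summed over the libraries, and genes with 100 or more reads in the library taken at the end of the pulse were kept. These were 7765 of the 15383 genes with any read (50.5%), and 7748 of them were protein-coding. All of these genes are described below, by function and by the extremes of the distribution.

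THP-1 is a human line grown from an acute monocytic leukaemia, and it carries the KMT2A-MLLT3 fusion. In the labelled library, cells had received 30 μM 4sU for 12 h, in medium renewed every 3 h, and were washed and harvested at 0 h of a chase with 3 mM uridine. In the control library, cells had never received 4sU, and the labels do not say whether they were cultured alongside the pulse or had their medium renewed in the same way. Both were QuantSeq 3′ FWD libraries, which read the 3′ ends of polyadenylated RNA, from total RNA treated with iodoacetamide, to which 5% RNA of Drosophila S2 cells was added as a spike-in. The other 6 libraries of the series, at 20 and 40 min and 1, 2, 8 and 12 h of chase, serve here only to show how the same genes read later. There was 1 library per condition, so the differences below have no replicate check and no test between conditions was possible. The intervals of shares are exact 95% (Clopper-Pearson) intervals, and they cover counting error only, because reads without molecular identifiers are not independent molecules.

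In this method, called SLAM-seq, cells convert 4sU to a nucleotide that RNA polymerase uses in place of some uridines. Iodoacetamide alkylates the sulphur, and reverse transcription then reads the position as C. After a pulse of fixed length, the labelled fraction of an mRNA depends on how much of the pool was made during the pulse, so messages that turn over quickly are replaced more completely than stable ones, and a message whose level rises or falls during the pulse also changes its fraction. A short-lived message is typical of regulators such as transcription factors and feedback inhibitors, and a long-lived one of ribosomal, metabolic and structural proteins.

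The library at the end of the pulse held 8710682 reads over all genes and the library without 4sU 2916054. Monocytic identity was checked from markers. The 15 monocytic markers summed to 30572 reads at 0 h and 4131 without 4sU. ELANE gave 10547 and 1089 of these reads and LAMP1 2643 and 1638, while CD14 gave 172 and 8. Of the 15 markers, 14 were among the genes kept, all but MPO. The median labelled share of these 14 was 13.0%. The markers of lymphoid cells summed to 97 reads at 0 h and 51 without 4sU, those of erythroid cells to 47 and 0, and those of epithelial cells and fibroblasts to 23 and 1. No gene of these 3 lists reached 100 reads. The highest of them were GNLY with 44 reads at 0 h, HBG1 with 25 and COL1A1 with 20. CD3G, CD8A, HBA2, COL1A2 and COL3A1 had 0 reads at 0 h. CD3E, CD2, HBB, KRT5 and KRT14 were not among the 15383 genes with any read.

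Label was present in almost every gene and spread over a wide range. Of 8546559 reads of the genes kept, 2594008 were labelled at the end of the pulse, a share of 30.4% (30.32 to 30.38). Without 4sU, 324 of 2837704 reads were called labelled, a share of 0.0114% (0.0102 to 0.0127). The first share was 2658 times the second. The median gene had 43.9% of its reads labelled at 0 h. The 25th and 75th percentiles lay at 28.9% and 55.5%, and the 5th and 95th at 11.4% and 67.9%. Only 3 genes had no labelled read at 0 h. The highest share of any gene was 84.7%, for ANLN, the cytokinesis scaffold anillin, with 465 reads; it was named after its value was seen.

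**Figure D1:**
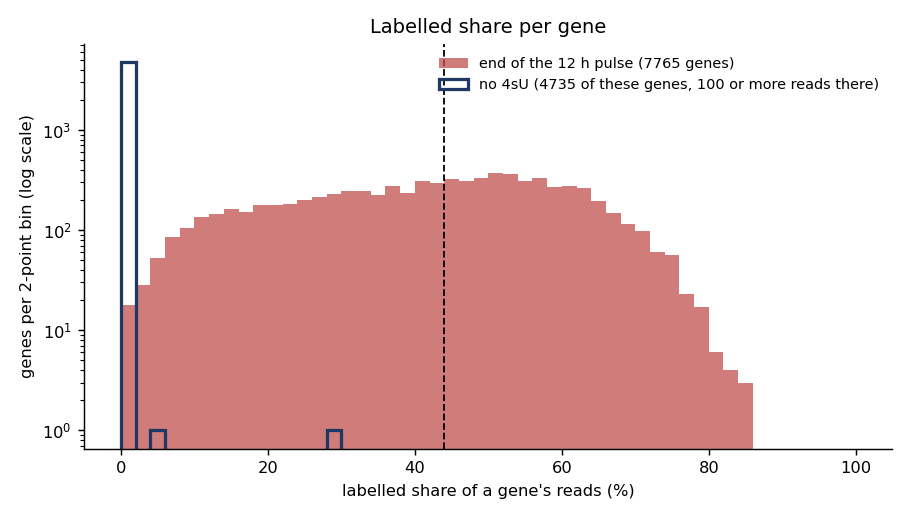
Histogram of the labelled share per gene, in bins of 2 percentage points, with the number of genes on a log scale. The 7765 genes at the end of the pulse (red) run from near 0% to 84.7% around a median of 43.9% (dashed), and of the 4735 genes that also had 100 or more reads without 4sU (blue outline) all but 2 lie under 2%.

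Genes at or above 60% are called highly labelled below and genes under 20% little labelled. There were 1267 highly labelled genes, which is 16.3% of all genes kept, and 1058 little labelled genes, which is 13.6%. The thresholds cut a continuous distribution. ABHD13, CDC73 and GTF2A2 lay just inside the upper one at 60%, and CALM2, GPBP1L1 and TTF2 just outside at 59.96%, 59.95% and 59.94%. CDK16, GNG5P2 and SKIV2L lay at 20%, and GPS2, PABPC1 and PDCD5 just below at 19.97%, 19.96% and 19.96%. The limit of 100 reads likewise cut through a range of shares, with AKIRIN2, ATG10 and ATP6V0A2 at 100 reads (57%, 43% and 44% labelled) and AC105052.3, BTBD3 and C15orf40 at 99 reads (23.2%, 63.6% and 31.3%).

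Of the 12 most labelled genes with 500 or more reads, 4 were in the mitosis list, and others also serve cell division. CKS2, a small subunit that binds cyclin-dependent kinases (hg19 chromosome 9, segment start 91931341, plus strand), had 1353 of 1757 reads labelled at the end of the pulse, or 77.0% (75.0 to 79.0), against 0 of 208 without 4sU. UBE2C, the ubiquitin-conjugating enzyme that works with the anaphase-promoting complex (chromosome 20, 44445348, plus), had 728 of 943 reads labelled at the end of the pulse, or 77.2% (74.4 to 79.8), against 1 of 704 without 4sU. KIF23, a kinesin of the spindle midzone (chromosome 15, 69740147, plus), had 439 of 565, or 77.7% (74.0 to 81.1), against 0 of 81. All 3 intervals overlap, so their order is not resolved at this depth. HMMR, a spindle-associated protein, had 75.6% labelled. HJURP, the chaperone that places CENPA at centromeres, reached 77.4%, and CKAP2, a microtubule-associated protein, reached 77.1%.

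The remaining 6 of these 12 have varied roles. The highest was IP6K2, an inositol hexakisphosphate kinase (chromosome 3, 48725436, minus), with 508 of 645 reads labelled at the end of the pulse, 78.8% (75.4 to 81.9), against 0 of 228 without 4sU. The shares of its 4 distinct segments ranged down to 56.6%. ARL6IP1, which shapes the endoplasmic reticulum membrane (chromosome 16, 18802991, minus), was the most precisely measured, with 1924 of 2462 reads or 78.1% (76.5 to 79.8), against 0 of 422. SHOC2, a scaffold of the RAS-RAF pathway, had 77.9%, and RHEB, the small GTPase that activates mTORC1, had 75.9%. PFDN2, a subunit of the prefoldin chaperone, had 75.5%. ZNF684, a zinc-finger gene, had 75.8%, but the segments that count other stretches of the same gene ranged down to 22.2%.

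At the other end, the 12 least labelled genes with 500 or more reads were genes of ribosomes, respiration, myeloid granules and a few small housekeeping proteins. RPL35, a protein of the large ribosomal subunit (chromosome 9, 127620159, minus), had 453 of 17577 reads labelled at the end of the pulse, 2.58% (2.35 to 2.82), against 0 of 3812 without 4sU. With a limit of 3 reads for a count of 0, used here in place of the exact interval, that library allows a share of up to 0.0787%. RPL36, also of the large subunit (chromosome 19, 5691522, plus), had 1.32% (1.06 to 1.63) at the end of the pulse and 0 of 1650 labelled without 4sU. RPL28 had 1.24% (0.868 to 1.71), the lowest of all 12, although its other segments reached 29.8%. Even these shares stood above the limit of the unlabelled library for RPL35 and RPL36, while RPL28 with 0 of 234 reads, which allows up to 1.28%, did not.

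PRTN3, the neutrophil protease proteinase 3 (chromosome 19, 847970, plus), had 90 of 4815 reads labelled at the end of the pulse, 1.87% (1.51 to 2.29), against 0 of 908 without 4sU. AZU1, the granule protein azurocidin that neighbours it on chromosome 19, had 1.92% (1.45 to 2.50). NDUFB7 and NDUFA3, both accessory subunits of respiratory complex I, had 2.37% and 2.65%. ELOB, the elongin B adaptor of ubiquitin ligases, had 1.94%, MYL9, a myosin light chain, 2.49%, and IFI27L2, a gene of an interferon-inducible family, 2.68%. BLOC1S1, which encodes a subunit of the BLOC-1 complex of lysosome-related organelles, and its readthrough gene BLOC1S1-RDH5 had 2.66% and 1.76%, and their counted rows overlap, so they share reads.

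**Figure D2:**
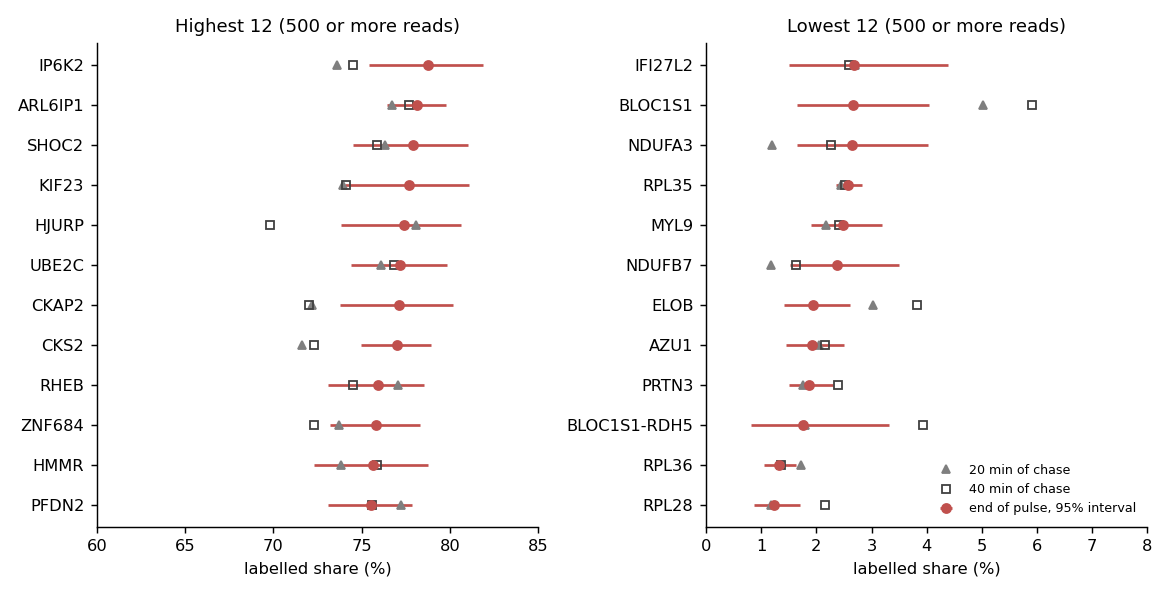
Labelled share of the 12 most and the 12 least labelled genes with 500 or more reads at the end of the pulse (red points with 95% exact binomial intervals), with the same genes at 20 min (triangles) and 40 min (squares) of chase. The highest 12 lie between 75.5% and 78.8% and the lowest 12 between 1.24% and 2.68%, on separate horizontal scales, and most later values lie close to the first.

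The transcript ends of these extremes differ in sequence, and the stretches below show 2 motifs known as sites of RNA-binding proteins that shorten mRNA life in many cells. TATTTAT is the core of the AU-rich element, and TGTANATA is the Pumilio motif. Both were searched in the last 1000 bases of the transcript, on the transcript strand only, and a match of one may share bases with a match of the other. Among the 12 most labelled genes, 5 had TATTTAT and 6 had TGTANATA, with the whole transcript searched for the 3 that are shorter than the window. Among the 12 least labelled, 0 had either, but only 4 of them are long enough to fill the window. For comparison, of the 7225 kept genes with at least 1000 bases of transcript, 21.2% had TATTTAT and 18.9% had TGTANATA. One match per gene is given, with the motif in capitals, from GENCODE 29 transcripts (GRCh38), for the most labelled genes and for ZFP36 and MCL1, which are described further on. A match is a string of letters, and binding was not measured.
IP6K2: cttggagtcttTATTTATtttaactatttc
KIF23: acaaatgctgcTATTTATtagctgcaagaa
HJURP: tttcggagtgtTATTTATcttcccacttgc
CKAP2: tatatcttttcTATTTATtgacttctcatg
ZFP36: tgattttatagTATTTATatatattgggtc
MCL1: cataagccgctTATTTATatcatgtatctc
ARL6IP1: cttactttcatTGTAAATAagcctgtcttc
SHOC2: caatctatataTGTATATAcaatgctatat
CKS2: taatgtatatgTGTATATAaggtagtattc
RHEB: aaatgtatactTGTAAATAaaatagctgca
ZNF684: ttatttaaataTGTAAATAaataatttgca

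By function, the genes of cell division and of gene regulation were the most labelled. The 40 mitosis genes had a median labelled share of 66.6% (interquartile range 57.9 to 71.0), against 43.9% over all genes. Of the 40, 26 (65.0%) were highly labelled, where 16.3% of all genes were, and 0 were little labelled, where 13.6% were. ASPM, which focuses spindle poles, was the highest at 79.7%. The kinetochore genes NDC80 and CENPE had 79.1% and 78.7%, and the spindle checkpoint kinase BUB1B had 78.3%. CDK1, the mitotic kinase, had 70.2%, its partner cyclin CCNB1 68.8%, and the mitotic kinases PLK1 and AURKA 67.3% and 65.4%. BIRC5, the chromosomal passenger protein survivin, was the lowest at 36.9% (35.1 to 38.7, 2778 reads), under the median of all genes.

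DNA replication genes, which serve the same cell cycle, were not labelled like the mitosis genes. Their median was 42.5% (31.7 to 51.8, 46 genes), close to that of all genes, and when all distinct segments of each gene were summed it lay 0.25 points above the median of all genes instead of below it. GMNN, the licensing inhibitor geminin, had 75.4%, ORC6 of the origin recognition complex 71.6%, the ribonucleotide reductase subunit RRM2 63.1% and the sliding clamp PCNA 61.0%. At the low end were MCM5 of the replicative helicase at 22.3%, thymidine kinase TK1 at 19.1% and the polymerase delta subunit POLD2 at 6.44%. The 19 genes of G1 cyclins, cyclin-dependent kinases and their inhibitors lay higher, with a median of 55.4%, from CCND3 at 30.3% to the inhibitor CDKN2D at 75.4%. Relative to the median of all genes, the interval of this list median ran from -2.88 to 15.8 points and so included it. The 10 histone variants with polyadenylated mRNA had a median of 42.1%, from H2AFJ at 9.62% to the centromeric CENPA at 71.7%, and the median moved to the upper side of all genes when only genes with 500 or more reads were kept or when T content was centred.

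Lists of transcription factors and feedback regulators had medians above that of all genes. Immediate-early genes, which growth factors and cytokines switch on within minutes, had a median of 56.5% (46.1 to 65.2), for the 24 of 46 that reached 100 reads. Of the 24, 9 (37.5%) were highly labelled, where 16.3% of all genes were, and 0 were little labelled, where 13.6% were. ZFP36, which binds AU-rich elements and promotes mRNA decay, was the highest at 79.2%, and the growth-regulating IER5 and KLF10 had 70.8% and 70.2%. JUN, a subunit of AP-1, had 50.2%, the JAK-STAT inhibitor SOCS3 44.7%, the survival factor IER3 41.6% and the antiproliferative TOB2 38.6%. In the 40 min library these genes had a median of 47.0%, against 43.2% over all genes kept. Where members were instead chosen by 100 reads at 40 min, the median of the list lay 1.5 points under that of all genes.

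Leukaemia and haematopoietic transcription factors had a median of 55.3% (48.7 to 60.1, 29 genes), with 8 highly labelled (27.6%, against 16.3% of all genes) and 2 little labelled (6.90%, against 13.6%). The highest was the ETS factor ELF1 at 72.1%, followed among the named members by the repressor GFI1 at 64.4% and CEBPB, a factor of myeloid maturation, at 60.1%. HOXA9, a target of KMT2A fusions, had 58.1% (54.2 to 61.8), although its segments ranged down to 23.7%, and MYB, a factor that keeps blood progenitors dividing, had 48.4% (44.8 to 52.0). The 2 little labelled members were SPI1, the master regulator of myeloid fate, at 10.4% and LYL1 at 19.7%. Their transcript ends were poor in T, with T contents of 17.2% and 12.8%, against a median of 31.6% over all genes. At 8 h of chase, SPI1 had 1.31% labelled and LYL1 1.67%. The part of T content in the low 0 h shares of SPI1 and LYL1 was not tested. MYC, the growth-promoting factor, had 163 of 245 reads labelled at the end of the pulse, 66.5% (60.2 to 72.4), against 0 of 85 without 4sU.

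The zinc-finger families were also labelled above the median gene. ZNF genes had a median of 54.3% (42.7 to 62.0) over the 187 of 453 members that reached 100 reads, and 60 of them (32.1%) were highly labelled, where 16.3% of all genes were. They ran from ZNF385A at 15.5% to ZNF614 at 80.5%. The 20 ZBTB factors had a median of 57.8%, from ZBTB7B at 30.9% to ZBTB34 at 79.7%. Transcription cofactors were similar, since the 55 genes of Mediator, BET proteins and elongation factors had a median of 53.5%, between MED16 at 14.9% and MED30 at 78.3%. The 29 chromatin remodellers had 52.4%, from ARID5A at 14.4% to BAZ1A at 72.4%, but among genes with 500 or more reads their median lay 8.88 points under that of all genes.

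The ubiquitin ligase genes of the F-box, RNF and TRIM families, which choose proteins for degradation, had a median of 53.4% over 106 genes, with 33 highly labelled (31.1%, against 16.3% of all genes) and 2 little labelled (1.89%, against 13.6%), from FBXW5 at 14% to FBXO30 at 77.6%. The 15 p53 target genes had 53.9%, and PPM1D, the phosphatase that switches p53 off, stood at 83.7% while the repair gene DDB2 stood at 43.8%. The 25 apoptosis regulators had 51.2%, from BAD at 9.12% to the apoptosome scaffold APAF1 at 72.8%. Among the survival genes, MCL1 had 2738 of 4603 reads labelled at the end of the pulse, 59.5% (58.0 to 60.9), against 0 of 2476 without 4sU, and BCL2 had 44.1% (37.5 to 50.8). CDK6, a cell-cycle kinase that this leukaemia expresses, had 45.3% (43.7 to 46.8).

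Inflammatory cytokines and genes of the NF-kB response had a median of 49.6% over 20 genes. In the 40 min library the same genes had 43.1%, against 43.2% over all genes kept, and the list lay 1.71 points under all genes where members were chosen by 100 reads at 40 min. The chemokine CCL2 had 67.5% of 265 reads labelled at the end of the pulse and 0 reads of any kind without 4sU. TNFAIP3, which shuts off NF-kB signalling, had 66.0%, and TNF 48.8%. NFKBIA, which encodes the NF-kB inhibitor IkB-alpha, had 1521 of 3015 reads labelled at the end of the pulse, 50.4% (48.6 to 52.2), against 0 of 645 without 4sU. The NF-kB subunits RELB and NFKB2 were lower, at 29.2% and 18.5%.

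The genes of RNA processing spanned the middle of the distribution. SR splicing factors had a median of 53.5% (12 genes, SRSF9 at 29.9% to SRSF6 at 63.2%), DEAD and DEAH box helicases 47.8% (43 genes, DDX49 at 9.15% to DHX35 at 75.2%) and the mRNA decay machinery 46.1% (61 genes, SMG5 at 14.3% to SMG8 at 77.2%). Core spliceosome and hnRNP proteins had 38.7% (62 genes), with SNRPD2, an Sm protein, at 7.61% and HNRNPF at 71.9%. Nucleoporins and transport factors had 49.2% (45 genes, NUP210 at 10.0% to NUP153 at 70.0%) and RAB GTPases of vesicle traffic 52.0% (31 genes, RAB1B at 13.8% to RAB14 at 65.0%). RNA polymerase subunits had 38.0% (23 genes, POLR2I at 4.91% to POLR1C at 66.1%), and this median lay 0.839 points above that of all genes once T content was centred. The only snoRNA host transcript that reached 100 reads had 41.6%.

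Histone methyltransferases and demethylases had a median of 44.6% (39 genes, CARM1 at 9.54% to PRDM1 at 71.3%), and solute carriers, the membrane transporters, had 43.2% (119 genes). Neither stood clearly off the median of all genes, and the side changed for the first among genes of middle T content and for the second when T content was centred. Among the carriers, the zinc exporter SLC30A1 had 73.6%, and the anion exchanger SLC4A1 had 0 of 107 reads labelled. Cholesterol genes split, with a median of 38.1% over 18 genes. MSMO1 and IDI1 of the synthesis pathway had 68.5% and 64.2%, while FDPS and MVD of the same pathway had 14.7% and 11%.

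**Figure D3:**
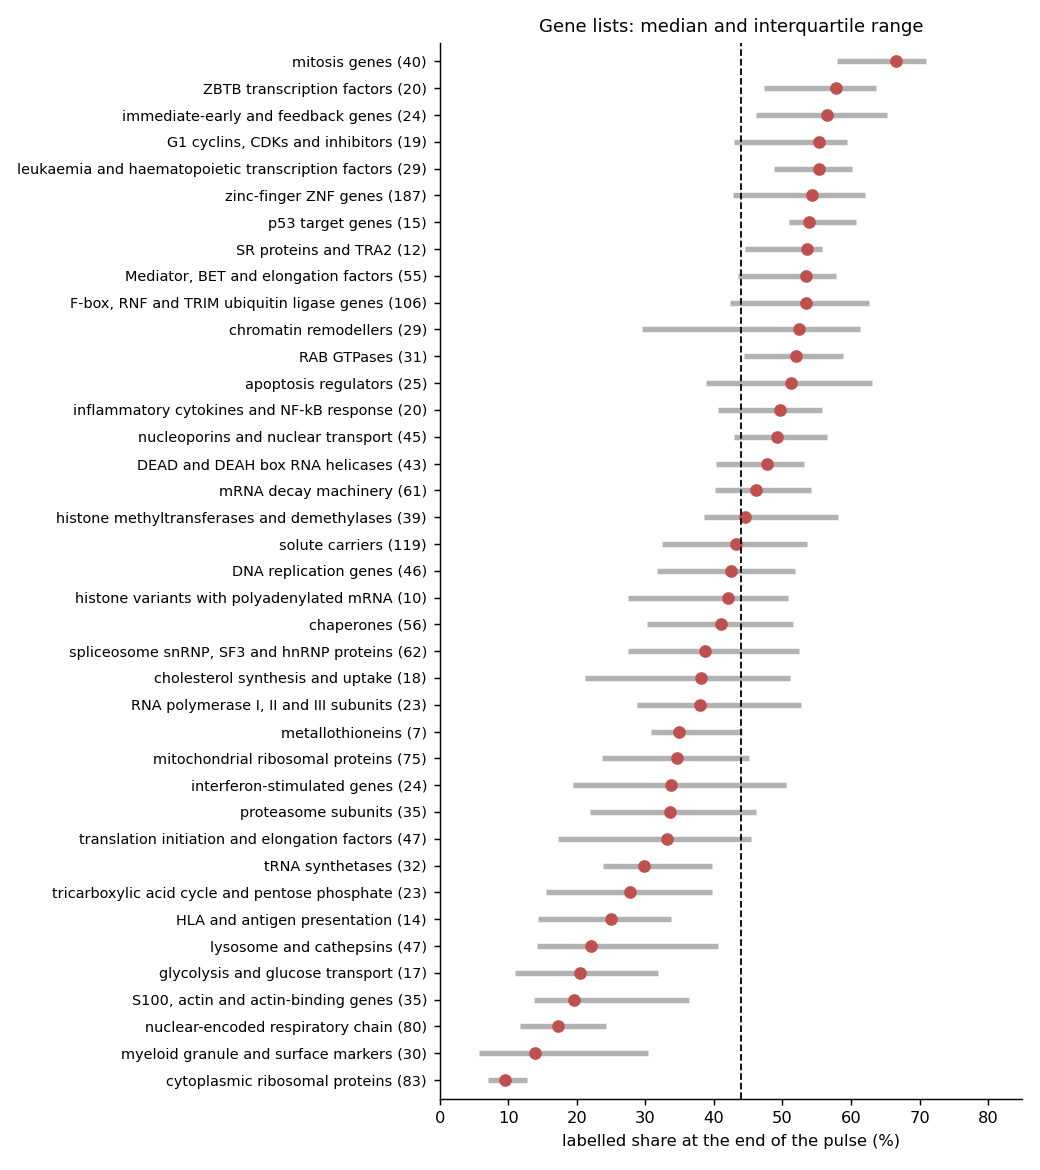
Median labelled share at the end of the pulse (points) and interquartile range (bars) of the 39 function lists with 5 or more genes kept, with the number of genes in brackets and the median of all genes (43.9%) as a dashed line. The mitosis list stands highest at 66.6% and the cytoplasmic ribosomal proteins lowest at 9.52%, and 18 of the 39 medians lie above that of all genes. The intervals of list medians describe the spread among the genes of a list in 1 library. These genes are not replicates, so the intervals are no test. On either side, some of these intervals include the median of all genes. Above it these include chromatin remodellers (-6.57 to 14.8 points), SR proteins (-3.76 to 13.0) and apoptosis regulators (-2.94 to 16.9). They also include G1 cyclins, CDKs and inhibitors (-2.88 to 15.8) and inflammatory genes (-3.13 to 11.3). Below it they include interferon-stimulated genes (-23.6 to 5.68) and chaperones (-7.65 to 1.02).

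Cytoplasmic ribosomal proteins were the least labelled list. The 83 of 86 genes with 100 or more reads had a median of 9.52% (7.0 to 12.8). Of them, 72 (86.7%) were little labelled, where 13.6% of all genes were, and 0 were highly labelled, where 16.3% were. They held 14.3% of all reads at 0 h and 4.37% of the labelled ones. Only 4 reached 30%, namely RPL26L1 at 43.8%, RPL39L at 43.0%, RPL22L1 at 40.7% and RPL7L1 at 30.4%, all of which encode paralogs of the standard subunit proteins. RPS27L, another paralog, had 29.8%. Reads of paralogs and processed pseudogenes of this family can be split or shared in the deposited counting, so single values are uncertain.

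The mitochondrial and cytoplasmic translation machinery other than these proteins was labelled more. The 75 mitochondrial ribosomal proteins had a median of 34.6%, from MRPL23 at 3.87% to MRPL44 at 64.9%. The 47 translation factors had 33.2%, from EEF1A2, a tissue-restricted elongation factor, at 0.935% to EIF4A2 at 66.1%, and 16 of them (34%, against 13.6% of all genes) were little labelled. The 32 tRNA synthetases had 29.9%, from VARS at 5.25% to MARS2 at 69.6%. Proteasome subunits (35 genes) had 33.5%, from the immunoproteasome subunit PSMB10 at 8.39% to PSMD12 at 63.9%, and chaperones (56 genes) had 41.1%, from the disulphide isomerase PDIA5 at 12.8% to HSPA13, of the HSP70 family, at 69.5%.

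Genes of energy metabolism had medians under that of all genes. The 80 nuclear-encoded genes of the respiratory chain had a median of 17.3% (11.7 to 24.3), 48 (60%) were little labelled, where 13.6% of all genes were, and 0 highly labelled, where 16.3% were. SDHD, the membrane anchor of complex II, was the highest at 54.5%, and NDUFV2 of complex I had 53.5% and UQCRFS1 of complex III 42.4%. The 17 genes of glycolysis and glucose transport had a median of 20.5% (11.1 to 31.8), and 8 were little labelled (47.1%, against 13.6% of all genes). GAPDH had 771 of 13716 reads labelled at the end of the pulse, 5.62% (5.24 to 6.02), against 0 of 4449 without 4sU, and the glycolytic enzymes LDHA and PKM had 10.4% and 11.1%. The highest of the list were the glucose transporter SLC2A1 at 55.1%, the lactate transporter SLC16A1 at 54.6% and the phosphofructokinase PFKP at 47.6%, while SLC16A3, another lactate transporter, had 27.6%. The 23 genes of the tricarboxylic acid cycle and pentose phosphate pathway had 27.8%, from IDH3G at 6.10% to IDH1 at 71.4%. Of these, 8 (34.8%, against 13.6% of all genes) were little labelled.

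Genes of the myeloid phenotype also had medians under that of all genes. The 30 genes of granules and surface markers had a median of 13.9% (5.68 to 30.4), and 16 (53.3%) were little labelled, where 13.6% of all genes were. The granule genes PRG2, CTSG and ELANE had 1.69%, 4.10% and 4.87%, and the highest members were the surface receptors TLR2, TLR4 and CD33 with 62.9%, 55.3% and 49.3%. Other surface markers were lower, with CD4 at 9.55%, CD14 at 23.3%, CSF1R at 29.1% and ITGAM at 29.3%. LYZ, the secreted bactericidal lysozyme of monocytes, had 426 of 3689 reads labelled at the end of the pulse, 11.5% (10.5 to 12.6), against 0 of 133 without 4sU. The 47 lysosome genes had a median of 22.1% (14.2 to 40.6), and 22 (46.8%, against 13.6% of all genes) were little labelled. Of these, GRN, the progranulin gene, had 6.59%, whereas the proton pump subunits ATP6V1G1 and ATP6V1H had 62.0% and 60.3% and the autophagy receptor SQSTM1 57.0%.

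The 35 S100, actin and actin-binding genes had a median of 19.6%, from the calcium-binding S100A8 at 4.78% to the capping protein CAPZA2 at 54.0%. ACTB, cytoplasmic beta-actin, had 6090 of 33835 reads labelled at the end of the pulse, 18.0% (17.6 to 18.4), against 1 of 9406 without 4sU. The 14 HLA and antigen presentation genes had 25%, from TAPBP at 8.20% to NLRC5, which drives class I genes, at 48.6%, and 2 members of this list had labelled reads without 4sU, as described below. Interferon-stimulated genes had 33.7% (24 genes, IFITM2 at 10.2% to IFIT5 at 75.6%), a median that lay 1.79 points above all genes among genes of middle T content. The list of metallothioneins, which also holds their inducer MTF1, had 35.0%, from MT2A at 27.7% to MTF1 at 53.8%.

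The most abundant mRNAs were among the least labelled. The 100 genes with the most reads held 26.8% of all reads at 0 h, and their median share was 12.6%. The 1000 with the most reads held 64.2%, with a median of 27.8%. From the fewest to the most reads, the medians of 5 nearly equal classes of genes were 48.3%, 48.6%, 45.9%, 43.3% and 31.9%. The gene with the most reads, CAP1, a regulator of actin filaments, had 37.5% of 112184 reads labelled. Over the 7765 genes, the labelled share and the log2 read count had a Pearson r of -0.30 and a Spearman coefficient of -0.24, both from the same library and across genes that are not independent replicates.

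T content of the transcript end moved with the share. A read can show a conversion only at a T. In the last 250 bases of the transcript, T content and labelled share had a Pearson r of 0.60 and a Spearman coefficient of 0.58 over 7761 genes. This window is the end of the GENCODE transcript, which may differ from the stretch that the counted reads covered. The genes were split by T content into 10 classes of 643 to 832 genes. In the class with the least T (7.20% to 21.2%), the median share was 20.1%, and 49.6% of the genes were little labelled. In the class with the most T (40.0% to 54.8%), it was 58.2%, and 44.4% were highly labelled. The part that read-out of conversions and message turnover have in this relation was not tested. The 12 most labelled genes had T contents from 30.0% to 43.6% and the 12 least labelled from 12.8% to 24.8%, without overlap.

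**Figure D4:**
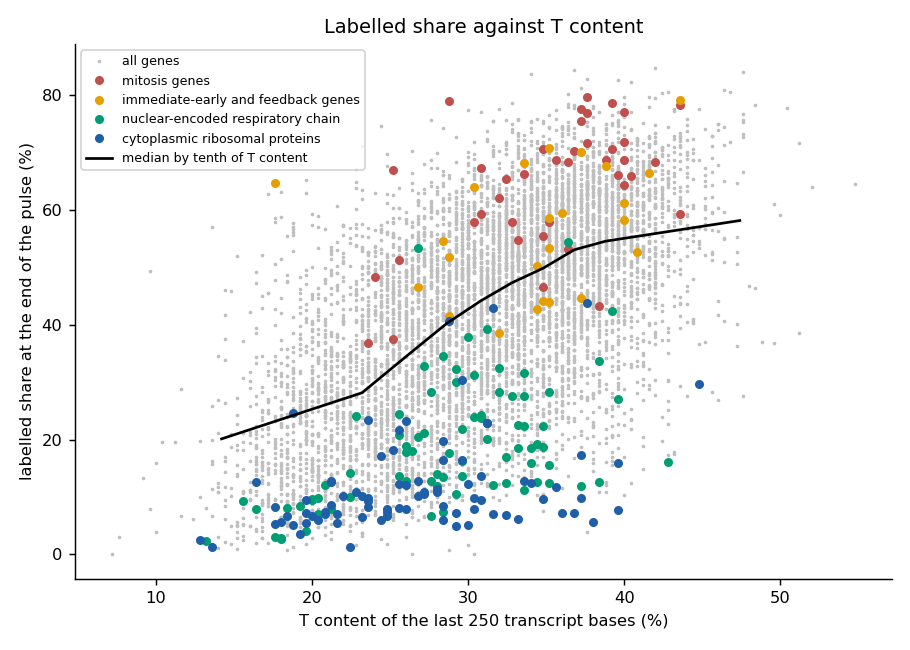
Labelled share at the end of the pulse against T content of the last 250 transcript bases, 1 point per gene (7761 genes), with 4 function lists in colour and the median share of 10 classes of T content as a line. The median runs from 20.1% to 58.2%, and at like T content most mitosis genes lie above the line and most ribosomal and respiratory genes below it.

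Centring each gene on the median of its class of T content, an adjustment chosen after seeing the data, moved the medians of mitosis, immediate-early, respiratory and ribosomal genes towards that of all genes and that of the HLA list away from it. The mitosis genes still had the highest median, and the cytoplasmic ribosomal proteins and the HLA list had the lowest. The mitosis median was then 59.1%, that of immediate-early genes 51.3%, that of the respiratory chain 24.9%, that of cytoplasmic ribosomal proteins 22.44% and that of the HLA list 22.36%, against 43.9% over all genes. Highly labelled genes then numbered 825 and little labelled genes 455. The ribosomal genes had a median T content of 26.0% and the mitosis genes 36.4%.

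Other features of the transcript moved with the share too. Over 5 nearly equal classes of genes, from the least to the most labelled, the median 3′ UTR length was 437, 998.5, 1577.5, 1841 and 1665 bases. TATTTAT was in 5.75%, 14.8%, 21.8%, 27.3% and 33.2% of genes in these classes and TGTANATA in 6.24%, 11.3%, 18.5%, 22.9% and 32.8%. The 1534 genes with TATTTAT had a median labelled share of 52.4%, and those without had 42.6%. For TGTANATA the values were 53.6% for 1366 genes with it and 42.9% for those without. Both motifs are rich in T. Within each of 10 classes of T content, the genes with the motif had the higher median, by 0.684 to 12.6 points for TATTTAT and by 3.72 to 9.35 points for TGTANATA. The number of exons showed almost no relation (Pearson r 0.035).

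The precision of a single gene's share followed its reads. The median gene had an interval that reached 4.74 points to either side, and for 1 gene in 10 it was wider than 8.25 points. The libraries at 20 and 40 min of chase, taken with the label still near its level at 0 h, give a further view of scatter. Their overall shares were 29.8% and 30.4%, and the median gene differed from its 0 h share by 2.48 points at 20 min and 2.53 at 40 min. Across the 7765 genes, the Pearson r with the 0 h share was 0.963 at 20 min and 0.960 at 40 min. At 20 min, 1057 of these genes were highly labelled, and 868 of them were among the 1267 highly labelled at 0 h. Little labelled genes numbered 1071 at 20 min, and 957 of them were among the 1058 at 0 h. These libraries are not replicates, because the chase had begun. Within the 0 h library, 2752 genes had 2 or more distinct segments of 100 reads, and the shares of a gene's segments spanned 1.84 points in the median gene and more than 14.1 points in 1 gene of 10.

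How much of the share was left 8 h later differed between lists. The median gene kept 15.9% of its 0 h share at 8 h. Mitosis genes kept 12.5%, and their median share at 8 h was 8.51%. Immediate-early genes kept 1.8%, with 1.03% labelled at 8 h. ZNF genes kept 4.18%. DNA replication genes kept 23.6%. The respiratory chain kept 88.4% and cytoplasmic ribosomal proteins 104%, with 9.52% labelled at 0 h and 8.71% at 8 h. The metallothionein list had 35.0% at 0 h and 35.6% at 8 h, but its members differed, with MT1E at 37.1% at 0 h and 31.3% at 8 h, MT1G at 32.5% and 42.4%, and MTF1 at 53.8% and 1.22%.

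Single genes near 78% at 0 h also differed at 8 h. IP6K2 had 78.8% labelled at 0 h, 73.6% at 20 min, 74.5% at 40 min and 1.67% at 8 h. ARL6IP1 had 78.1% at 0 h, 76.7% at 20 min, 77.7% at 40 min and 31.2% at 8 h. Their intervals overlapped at 0 h, and they stood far apart 8 h later. CKS2 had 27.4% at 8 h and HJURP 2.26%. Over all genes, the 0 h share and the percentage kept at 8 h had a Pearson r of -0.68, but the 0 h share is the denominator of the second measure.

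Conversions without 4sU were rare. Of the 7765 genes, 7595 had 0 labelled reads in the library without 4sU, 129 had 1, 20 had 2 and 21 had 3 or more. At the overall share of that library, only 23 genes had enough reads there to expect 1 or more labelled reads. Counts of 0 therefore cannot show in how many genes such conversions arise. The median gene had 135 reads there, so that 0 labelled reads, by the limit of 3 reads, allow a share of up to 2.22%. By the rule of at least 3 labelled reads and a share of at least 1%, 7 genes had background. They held 65 of the 324 labelled reads (20.1%), and without them the share was 0.00913% (0.00805 to 0.0103). Background did not follow the share at the end of the pulse, since over the same 5 classes, from the least to the most labelled, the pooled share without 4sU was 0.0111%, 0.0156%, 0.00738%, 0.0125% and 0.00918%.

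HLA-DRB1, a polymorphic class II antigen presentation gene, was the exception. It had 804 of 2344 reads labelled at the end of the pulse, 34.3%, against 30 of 107 without 4sU, 28.0% (19.8 to 37.5), so the ratio was 1.22. Its share stayed level, between 33.0% and 35.0% in the libraries from 20 min to 8 h of chase, and was 29.4% after 12 h. The intervals with and without 4sU overlap. With only 107 reads without 4sU, this comparison cannot show how much of the share came from the pulse. HLA-DQB1, of the same class II family, had 25.1% labelled at the end of the pulse and 6.56% without 4sU (4 of 61 reads), and still 17.5% at 12 h of chase.

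LIG1, the DNA ligase of replication, had 38.4% labelled at the end of the pulse and 18 of 382 reads, 4.71% (2.82 to 7.35), without 4sU. At 8 and 12 h of chase its share was 20.8% and 11%. The other 4 genes rested on 3 or 4 labelled reads without 4sU. WDYHV1, a glutamine amidase, had 56.3% labelled at the end of the pulse against 9.09% of 33 reads without 4sU, and ARHGEF3, a guanine nucleotide exchange factor, had 61.2% against 5.80% of 69 reads. PIP4P1 had 56.2% against 1.40%, and CTDSPL2 56.0% against 1.08%. ARHGEF3 and PIP4P1 were at 0.37% and 0% late in the chase (12 h and 8 h), unlike the HLA genes. Below the 1% limit, RPL30 had 25 of 3934 reads labelled without 4sU (0.635%), ARPC4, a subunit of the ARP2/3 complex, 14 of 3142 (0.446%) and RPL38 8 of 1354 (0.591%).

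**Figure D5:**
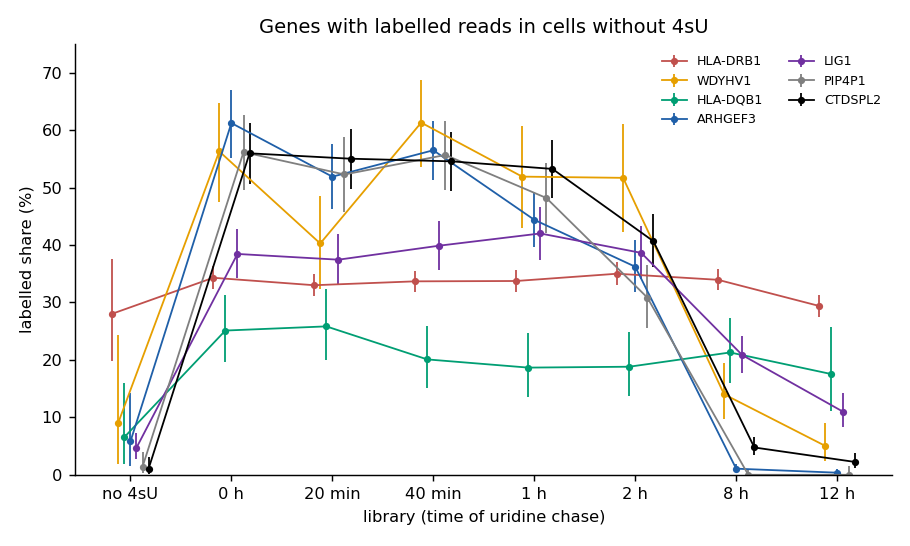
Labelled share, with 95% exact binomial intervals, of the 7 genes with 3 or more labelled reads and a share of at least 1% without 4sU, in the library without 4sU and in the 7 chase libraries. HLA-DRB1 runs nearly level from 28.0% without 4sU to 29.4% at 12 h, while ARHGEF3, PIP4P1 and CTDSPL2 have shares over 50% at 0 h and under 5% from 8 h on.

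Against this background, 5414 of 7753 genes (69.8%) had a share at 0 h at least 10-fold above their share without 4sU or, where larger, the limit of 3 reads in that library. The other 2339 had a median of 43 reads without 4sU, 2320 of them had 0 labelled reads there, and 4 had 3 or more. Some had more reads there and a low share at the end of the pulse, such as NDUFB7 with 2.37% at the end of the pulse and 687 reads without 4sU, and PLPPR3 with 0 of 229 reads labelled at the end of the pulse and 728 reads without 4sU. In these 4 genes the share at the end of the pulse was 1.22 times the share without 4sU for HLA-DRB1, 3.83 times for HLA-DQB1, 6.19 times for WDYHV1 and 8.16 times for LIG1.

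The 2 libraries differed in the level of many mRNAs and not in label alone. The log2 ratio of counts scaled to a common library size (CPM) at 0 h over no 4sU had an SD of 1.12 across 7753 genes, and 34.6% of genes lay outside a 2-fold range. For 20 min over 0 h the SD was 0.16, and 0.0386% of genes lay outside that range. S100A8 had 691 CPM at the end of the pulse and 18.9 CPM without 4sU, with 4.78% of its reads labelled at 0 h. TYROBP, a signalling adaptor of myeloid receptors, had 482 and 32.9 CPM with 4.83% labelled, LYZ 424 and 45.6 CPM with 11.5%, and the lectin LGALS9 872 and 66.9 CPM with 13.2%. These levels were over 4-fold higher at the end of the pulse, while few of the reads were called labelled.

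Other genes that were higher at the end of the pulse carried much label. Among them, the transcriptional repressor PRDM1 had 44.4 CPM there and 1.71 CPM (5 reads) without 4sU, and 71.3% labelled at 0 h. The 415 genes with at least 4-fold higher CPM at the end of the pulse had a median labelled share of 36.8%. Of these, 46 (11.1%) were highly labelled and 106 (25.5%) little labelled, where 16.3% and 13.6% of all genes were. Only 77 of the 415 had 100 or more reads without 4sU. Of these 77, 41 were little labelled, but genes with many reads had lower shares in general. The class of genes with the most reads at 0 h had a median share of 31.9%. The share of little labelled genes among all genes with as many reads was not computed. With 1 library each, 4sU, medium renewal and culture cannot be told apart as sources of these differences in level, and the no-4sU library serves here as background for conversions only.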

How the data were processed

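THP-1 SLAM-seq libraries were compared as deposited. The authors deposited raw counts per 3′ UTR segment, of all reads and of converted reads that they call nascent. Per the submitters' processing notes, bcl2fastq 2.17.1.14 and Trim Galore 0.6.5 handled the reads, with hg19 and dm3 as builds. The aligner and counter were not given in the sources used here. Nor is the count of conversions that made a read labelled, so every share depends on an unknown threshold. Spike-in reads were not used here.

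Both tables held 64545 segments of 56570 transcripts. GENCODE 29 (GRCh38, used for names and transcript sequence only) named 48045 transcripts (84.9%), and 5.65% of counts were unmatched. Excluded were 82 genes with the same counts as another gene and 3056 segments on unplaced or haplotype contigs. Of the genes kept, 31 share counts with such a gene and 102 have a neighbouring row within 1000 bases on the same strand. Coordinates are the hg19 starts of segments as deposited. Shares, exact intervals and a floor of 3 counts for a count of 0 were computed in Python 3.11.15 with SciPy 1.17.1, pandas 2.3.3 and numpy 2.4.6, after tests on simulated data. CPM was computed from all gene counts of a library.

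Genes named are the 12 highest and 12 lowest with 500 or more reads, the highest and lowest member of each list of 5 or more, all genes with background, and MYC, MYB, HOXA9, MCL1, CDK6, BCL2, ACTB, GAPDH, LYZ and NFKBIA. Other list members named as examples were chosen after their values were seen. The genes, lists and thresholds were chosen with earlier results of these data known. There were 40 function lists, 39 with 5 or more genes kept, and 4 marker lists. Alternatives changed the read minimum, segment choice, library, thresholds, background removal and T content.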

Additional observations from a re-analysis of the deposited data

How the results depend on the processing

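With 1 library per condition no replicate could be left out. No paired analysis was possible because each condition has 1 library and no result comes from a test. The overall share of 30.4% at 0 h became 30.5% with a minimum of 50 reads, 28.2% with 500, 28.6% with all distinct segments summed, 29.8% at 20 min, 30.5% at 40 min, 32.1% among genes of middle T content and 33.9% without cytoplasmic ribosomal proteins (chosen after seeing the data). The median of 43.9% became 38.5% with 500 reads, 42.7% at 20 min and 45.3% at middle T content. The 1267 highly labelled genes became 329 with 500 reads, 353 at middle T content, 825 with T content centred (chosen after seeing the data) and 2907 at 50% or more. The 1058 little labelled genes became 631, 188 and 455 under the same first 3 changes. These subsets hold fewer genes, 3222 with 500 reads and 2642 at middle T content, against 7765. The no-4sU share of 0.0114% became 0.00913% without the 7 background genes, which numbered 12 with 2 labelled reads and 4 at 5% or more. At 100-fold over background, 625 genes remained of 5414. Relative to the median of all genes, these list medians changed side: chromatin remodellers (-8.88 points) and histone variants (3.66) with 500 reads; DNA replication (0.25) with segments summed; immediate-early (-1.50) and inflammatory genes (-1.71) at 40 min, with members chosen by 100 reads there; histone methyltransferases and demethylases (-1.56) and interferon-stimulated genes (1.79) at middle T content; histone variants (2.77), solute carriers (0.0177) and RNA polymerase subunits (0.839) with T content centred. The cause of these changes was not tested. All 39 lists kept their side at 20 min, with background subtracted, with 50 reads and without shared counts. Depth was lowest in the no-4sU library, where the median gene had 135 reads.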
